A study of Drosophila melanogaster with 16 samples.

Results

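The genes described here are 10 fly genes of fat storage and lipid transport. Rfabg and Mtp serve lipoprotein assembly, AcCoAS, ATPCL, ACC and Desat1 serve fatty acid synthesis, Lpin serves glycerolipid synthesis, Lsd-1 and Lsd-2 coat lipid droplets, and bmm encodes a lipase. They were taken by gene symbol, with no threshold on their values, from the 17558 genes counted in each library. The choice of these genes, and of the gene lists below, was made with earlier results of these data known. Their shares set beside those of all genes are therefore descriptions only. All 10 were among the 13525 genes with enough counts to be tested.

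The fat body of the fly stores fat and releases it into the haemolymph, and so does the work of both liver and adipose tissue; a layer of it also lies in the head capsule. Fat leaves it on lipophorin, a lipoprotein whose protein part is cut from the Rfabg product and loaded with lipid by the Mtp protein, the fly's microsomal triglyceride transfer protein. New fatty acids are built from acetyl-CoA, are desaturated and joined to glycerol, and rest in droplets whose coat proteins, the perilipins, govern access by lipases such as the one that bmm encodes.

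The measurements are RNA-seq gene counts from 16 libraries of male Drosophila melanogaster heads, collected 5 to 8 days after eclosion from flies raised on standard medium at 25 °C. The flies model the GGGGCC repeat expansion of C9ORF72, a cause of frontotemporal dementia and amyotrophic lateral sclerosis, and the study asked how repeat RNA and the peptides translated from it differ in toxicity. All 16 libraries came from transgenic flies. Chrom2-160R flies expressed a transgene with 160 repeats (160R) from chromosome 2 and Chrom3-160R flies expressed it from chromosome 3. Chrom2-5R and Chrom3-5R flies expressed a transgene with 5 repeats (5R) from chromosome 2 and chromosome 3, and served as controls. Each group had 4 libraries. The sources used here do not give the driver that switched the transgenes on, the number of insertions behind each line, the crosses or the days of collection, so genetic background and handling cannot be told apart from the repeat or from the line. Nothing states that the replicates were separate collections, and the p-values rest on the spread among libraries alone, part or all of which may be technical.

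The 4 Chrom2-160R libraries held between 19047916 and 30496479 counts each, and the 4 Chrom2-5R libraries between 11452337 and 23498476. The Chrom3-160R libraries held between 48118158 and 49792428 counts, and the Chrom3-5R libraries between 42854987 and 53615117. Line and depth therefore went together: every chromosome 3 library held more counts than every chromosome 2 library. Even bmm, the scarcest of the 10 genes, had 1135 counts in the library where it was lowest. Chrom2-160R replicate 1 and Chrom3-160R replicate 4 stood apart in their muscle and cuticle genes, as described with the cell type markers below, and the counts of called genes among the 10, the lipid lists and the fat body markers are also given without them.

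Levels are given in CPM, each gene's counts scaled to a common library total, after correction of the library sizes by the trimmed mean of M values (TMM). Changes are log2 fold changes with their standard error, and every adjusted p comes from edgeR's quasi-likelihood test over all 16 libraries with Benjamini-Hochberg adjustment over the 13525 genes. A gene rose or fell where that adjusted p was below 0.05. The heads were extracted whole, so fewer fat cells and less RNA per fat cell cannot be told apart.

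The genes differed widely in level. Counts covered each gene's full span with its introns, so levels between genes were set per kilobase of span. Coordinates are those of the files, in build BDGP6. Rfabg (FBgn0087002), on chromosome 4 from 1060969 to 1077273 on the plus strand, averaged 465 CPM per kb over the 16 libraries and ranked 34 among the 13525 genes. Desat1 followed with 188 CPM per kb, then AcCoAS with 94.3, ACC with 62.7, Lsd-1 with 59.2 and ATPCL with 45.2 CPM per kb. Lsd-2 at 38 CPM per kb, Mtp at 29.2 CPM per kb and Lpin at 20.3 CPM per kb were lower, and bmm, at 9.3 CPM per kb, ranked 5483. The share of the span that is exon ran between 24.6% for bmm and 77.5% for Mtp, so genes with long introns are placed lower by this scale than per kilobase of transcript. Rfabg alone took between 0.536% and 0.934% of all counts in a library.

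With 160R on chromosome 2, 8 of the 10 genes fell against 5R on the same chromosome and none rose; the exceptions were Lpin and Lsd-1. Over all genes tested, 26.1% were called in this comparison, 13.3% lower and 12.8% higher. The median log2 change of the 10 genes was -0.55, against 0.01 for all tested genes. For 7 of them every 160R library lay below every 5R library, which held for 10.7% of all genes, while 11.9% lay wholly above. With 160R on chromosome 3, only Rfabg fell and none rose, where 2.11% of all genes were called, 1.43% lower and 0.673% higher. It was also the only one of the 10 called lower in both lines, as 0.547% of all genes were. For 4 genes every 160R library lay below every 5R library, which held for 5.77% of all genes, while 5.7% lay wholly above. The median change there was -0.15, against 0 for all genes. The difference between the changes of the 2 lines, chromosome 3 minus chromosome 2, was called for 6 of the 10 genes, all with a smaller fall or no fall on chromosome 3, beside 7.27% of all genes called, 3.9% in that direction and 3.36% in the other. Called genes as a whole depended on the scaling: 50.9% of them were lower on chromosome 2 and 46.3% of the line differences were lower, against 34.7% and 67.2% with upper-quartile scaling. The 8 called lower on chromosome 2 were 8 or 9 under every alternative, upper-quartile scaling included.

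**Figure D1:**
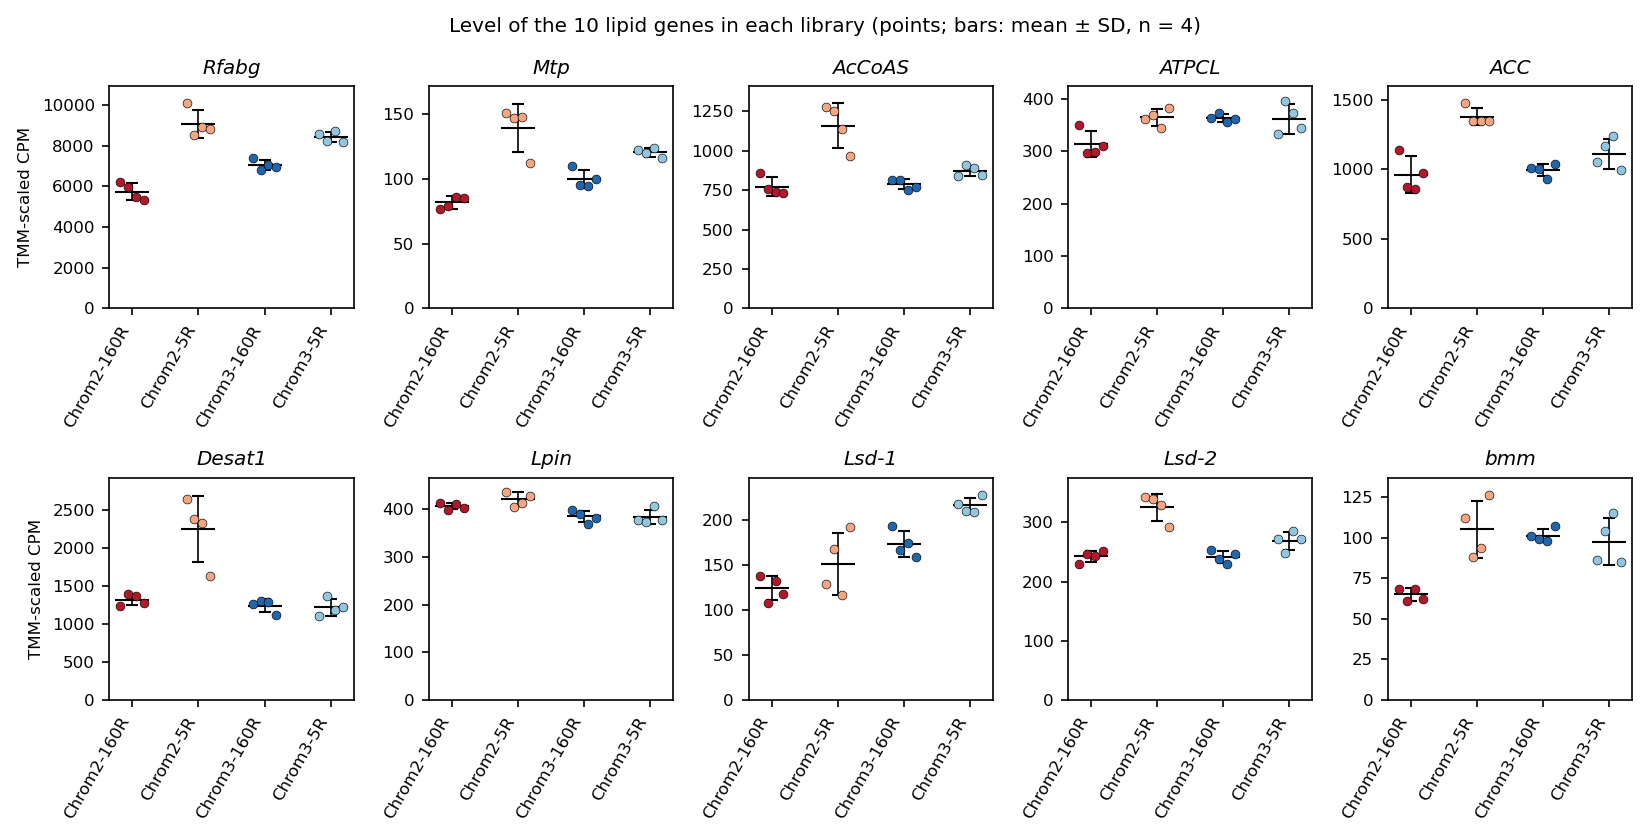
TMM-scaled CPM of the 10 genes (vertical axes, starting at 0) in each of the 16 libraries, grouped by line and repeat; points are libraries and bars are the mean and SD of 4 libraries. Chrom2-5R had the highest mean for every gene but Lsd-1, and Chrom2-160R lay below it without overlap for Rfabg, Mtp, AcCoAS, ACC, Desat1, Lsd-2 and bmm.

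Both lipoprotein genes fell on chromosome 2. Rfabg, which encodes the apolipophorin precursor, had 6219.8, 5952, 5468 and 5339 CPM in the 4 Chrom2-160R libraries, against 10080.1, 8507, 8914 and 8822 CPM in the Chrom2-5R libraries. The groups were well separated, and the change was -0.66 ± 0.06 (log2, SE; adjusted p = 1.51e-06, n = 4 each, edgeR), or 0.633 times the 5R level. On chromosome 3 Rfabg had 7399, 6782, 7048 and 6959 CPM in 160R libraries, against 8574, 8234, 8726 and 8196 CPM in 5R libraries. All 4 of the 160R libraries again lay below all 4 of the 5R libraries, with a change of -0.26 ± 0.06 (adjusted p = 0.0333). This was the only call among the 10 genes in that line, and it did not survive the loss of single libraries: the adjusted p was 0.082, 0.109 and 0.0558 without Chrom3-5R replicate 1, 3 or 4, and 0.111, 0.0768 and 0.0821 without Chrom3-160R replicate 2, 3 or 4. The change was larger in size on chromosome 2, and the difference of 0.40 ± 0.09 was called (adjusted p = 0.00974).

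Mtp (FBgn0266369) lies on chromosome 2L, minus strand, 20919094 to 20922876. Its levels were 76.5, 79.1, 86.2 and 85.6 CPM in Chrom2-160R, against 151, 147, 148 and 112 CPM in Chrom2-5R. Every 160R library was lower, and the change of -0.77 ± 0.08 (adjusted p = 5.06e-06) was among the largest of the 10, though Chrom2-5R replicate 4 stood well below the other 5R libraries. On chromosome 3 Mtp had 109.8, 95.1, 94.2 and 100.1 CPM in 160R, against 122, 120.3, 124 and 116 CPM in 5R. The groups did not overlap there either, but the change of -0.27 ± 0.08 missed the threshold (adjusted p = 0.0874, 95% interval -0.43 to -0.11). The chromosome 3 change of Mtp passed in 4 of 26 alternatives. Without Chrom2-5R replicate 4, whose spread enters the shared estimate of error, its adjusted p was 0.00448, and without Chrom3-160R replicate 1 it was 0.0407. With no library of that line left out, it was 0.0265 by the DESeq2 test and 0.0138 by edgeR in a fit of the 2 chromosome 3 groups alone. The difference between the lines was 0.50 ± 0.11 (adjusted p = 0.0125).

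Of the 4 fatty acid synthesis genes, all fell on chromosome 2 and none was called on chromosome 3. AcCoAS (FBgn0012034), which encodes acetyl-CoA synthetase and makes acetyl-CoA from acetate, is on chromosome 3L, minus strand, 21270722 to 21280243. It had 859, 758, 738 and 730 CPM in Chrom2-160R, against 1278, 1255, 1137 and 966 CPM in Chrom2-5R. The 160R libraries were all lower, by -0.59 ± 0.07 on the log2 scale (adjusted p = 3.29e-05). On chromosome 3 the levels were 814, 816, 753 and 773 CPM in 160R, against 842, 907, 891 and 847 CPM in 5R. Again there was no overlap, but the change of -0.14 ± 0.07 was not called (adjusted p = 0.376, 95% interval -0.3 to 0.01), and it differed from that on chromosome 2 by 0.44 ± 0.10 (adjusted p = 0.0155).

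ATPCL (FBgn0020236) encodes ATP citrate lyase, which makes cytosolic acetyl-CoA from citrate, and lies on chromosome 2R, minus strand, 15993531 to 16001290. It had 350.5, 296, 298 and 310.3 CPM in Chrom2-160R, against 362, 369, 345 and 383 CPM in Chrom2-5R. The 160R replicate 1 lay within the range of the 5R libraries, and the fall of -0.22 ± 0.06 (adjusted p = 0.0114) was the smallest of the 8 called. In the chromosome 3 line it had 364, 373, 355 and 362 CPM with 160R, against 332, 395, 373 and 345 CPM with 5R. The 160R libraries lay inside the 5R range, with a change of 0.01 ± 0.06 (adjusted p = 0.969, 95% interval -0.11 to 0.13). The line difference, 0.23 ± 0.08, missed the threshold (adjusted p = 0.104); without Chrom2-160R replicate 1 its adjusted p was 0.0166 and without Chrom3-5R replicate 2 it was 0.0407.

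ACC (FBgn0033246) encodes acetyl-CoA carboxylase, which makes malonyl-CoA and commits carbon to fatty acid synthesis. It lies on chromosome 2R, minus strand, 7974115 to 7991862. Its levels were 1143, 873, 856 and 975 CPM in Chrom2-160R, against 1478, 1349.6, 1349.7 and 1348 CPM in Chrom2-5R. The groups were separate, with the 160R replicate 1 closest to the 5R libraries, and the change was -0.52 ± 0.08 (adjusted p = 0.000264). On chromosome 3 ACC had 1009, 1002, 932 and 1036 CPM in 160R, against 1051, 1167, 1238 and 993 CPM in 5R. Those ranges overlapped and the change of -0.16 ± 0.08 was not called (adjusted p = 0.384, 95% interval -0.34 to 0.01). The difference between lines was 0.36 ± 0.12 (adjusted p = 0.0694), and it passed without Chrom2-160R replicate 1 (adjusted p = 0.00549) or Chrom3-5R replicate 3 (adjusted p = 0.0339).

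Desat1 (FBgn0086687) encodes the main stearoyl-CoA desaturase of the fly, which introduces the unsaturated bond into newly made fatty acids, and lies on chromosome 3R, plus strand, 12439600 to 12447616. It had 1241, 1396, 1368 and 1271 CPM in Chrom2-160R, against 2648, 2382, 2323 and 1627 CPM in Chrom2-5R. All 160R libraries were lower, by -0.77 ± 0.11 (adjusted p = 0.000227), with Chrom2-5R replicate 4 again closest to them. On chromosome 3 its levels were 1259, 1295, 1286 and 1111 CPM in 160R, against 1103, 1369, 1187 and 1221 CPM in 5R. These groups overlapped and the change was 0.02 ± 0.11 (adjusted p = 0.96, 95% interval -0.22 to 0.26). The line difference of 0.79 ± 0.16 (adjusted p = 0.00895) was the largest of the 10.

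Lpin (FBgn0263593) encodes lipin, a phosphatidate phosphatase that supplies diacylglycerol for storage fat, and lies on chromosome 2R, minus strand, 8136986 to 8156654. It was the steadiest of the 10 genes. Its levels were 414, 399, 411 and 403 CPM in Chrom2-160R, against 437, 404, 414 and 429 CPM in Chrom2-5R, and 398, 391, 370.2 and 381 CPM in Chrom3-160R, against 377, 374, 407 and 378 CPM in Chrom3-5R. Both pairs of groups overlapped. The change was -0.05 ± 0.04 on chromosome 2 (adjusted p = 0.39, 95% interval -0.13 to 0.03) and 0.00 ± 0.04 on chromosome 3 (adjusted p = 0.991, 95% interval -0.08 to 0.08). The gene kermit lies within the Lpin span on the same strand, over 49.5% of it, and its counts came to 0.106 of those of Lpin; shared reads cannot be assigned to either.

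The perilipin genes differed from each other. Lsd-1 (FBgn0039114) encodes the perilipin that recruits lipases to the droplet, and lies on chromosome 3R, plus strand, 23763857 to 23766662. It had 138, 108, 132 and 118 CPM in Chrom2-160R, against 129, 167, 117 and 192 CPM in Chrom2-5R. The 5R libraries were scattered across the 160R range and above it, and the change of -0.29 ± 0.13 was not called (adjusted p = 0.121, 95% interval -0.57 to -0.01); without Chrom2-5R replicate 3 it was (adjusted p = 0.0269). On chromosome 3 it had 193, 166, 174 and 159 CPM in 160R, against 218, 209.9, 209 and 227 CPM in 5R. All 160R libraries lay below all 5R libraries there, yet the change of -0.32 ± 0.13 was not called (adjusted p = 0.252, 95% interval -0.6 to -0.05). Its standard error came from the spread shared by all 4 groups, and in a fit of the 2 chromosome 3 groups alone the adjusted p was 0.0157. The changes in the lines differed by -0.03 ± 0.18 (adjusted p = 0.95, 95% interval -0.43 to 0.36).

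Lsd-2 (FBgn0030608) encodes the perilipin that shields stored fat from lipases, and lies on chromosome X, minus strand, 15069127 to 15076220. It had 229, 246, 244 and 251 CPM in Chrom2-160R, against 343, 339, 329 and 293 CPM in Chrom2-5R. The groups were separate, with a fall of -0.43 ± 0.05 (adjusted p = 3.5e-05). In the chromosome 3 line the levels were 254, 238, 229 and 246 CPM with 160R, against 272, 248, 285 and 272 CPM with 5R. Only the lowest 5R library reached the 160R range, and the change of -0.16 ± 0.05 was not called (adjusted p = 0.163, 95% interval -0.27 to -0.04). The line difference of 0.27 ± 0.08 passed narrowly (adjusted p = 0.0401). It was lost in 15 of 25 alternatives, and the adjusted p was between 0.0561 and 0.0865 in the 11 of these that left out a single library, which were Chrom2-160R replicates 2 and 3, Chrom2-5R replicates 1, 2 and 3, and replicates 1, 2 and 4 of both chromosome 3 groups.

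The lipase gene bmm (FBgn0036449) encodes brummer, the fly's adipose triglyceride lipase, which releases fatty acids from stored fat. It lies on chromosome 3L, minus strand, 14776496 to 14786412. Its levels were 68.4, 60.9, 68.6 and 62.0 CPM in Chrom2-160R, against 112, 88.2, 93.8 and 126 CPM in Chrom2-5R. The 160R libraries were tightly grouped below the more variable 5R libraries, with a change of -0.69 ± 0.11 (adjusted p = 0.000488). On chromosome 3 bmm had 101, 99.2, 97.9 and 107 CPM in 160R, against 86, 104, 115 and 84.8 CPM in 5R. The 160R libraries lay inside the 5R range and the change was 0.06 ± 0.11 (adjusted p = 0.867, 95% interval -0.18 to 0.29). The difference between lines was 0.75 ± 0.16 (adjusted p = 0.0109), close in size to that of Desat1. The lipase and the synthesis genes therefore fell together on chromosome 2, although they act in opposite directions on stored fat.

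**Figure D2:**
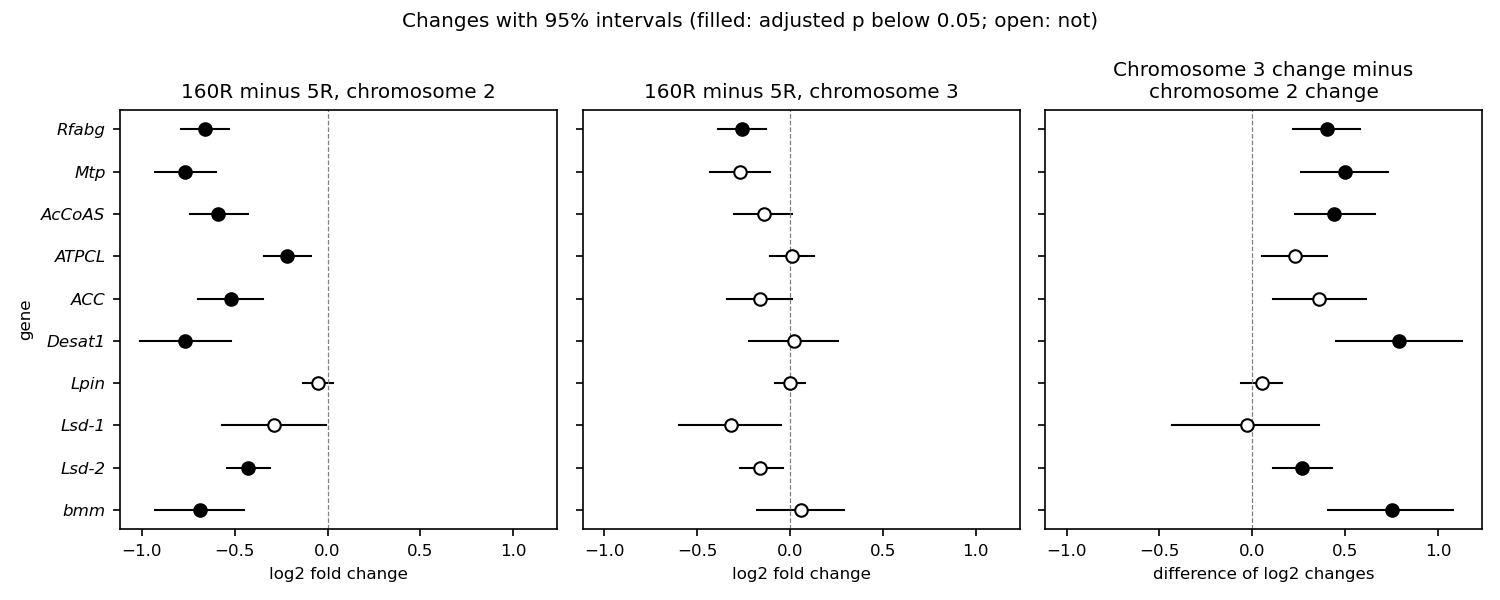
Log2 changes (horizontal axis) of the 10 genes for 160R minus 5R on chromosome 2 and on chromosome 3, and the difference of the 2 changes, with 95% intervals; filled points had an adjusted p below 0.05. On chromosome 2 the points of 8 genes are filled and below 0, on chromosome 3 only that of Rfabg, and in the right panel those of Rfabg, Mtp, AcCoAS, Desat1, Lsd-2 and bmm are filled and above 0.

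Overlap with other genes was small for most of the 10. Reads of both strands appear to have been counted together over the whole span. This was checked in 1622 pairs of a gene with at least 100 counts and a host gene around it on the opposite strand. In 1618 of these pairs the inner gene had at most the counts of its host. Reads of an opposite-strand neighbour therefore enter a gene's count where their spans overlap. Beyond kermit, the overlapping neighbours were Zyx with Rfabg (0.026 of its counts), Nup44A with ACC (0.0383), CG8320 and CG8370 with ATPCL (0.0404 and 0.209), and CG10214 with Lsd-1 (0.129). No gene overlapped Mtp, AcCoAS, Desat1, Lsd-2 or bmm. The part of shared reads in the changes of the overlapped genes was not tested.

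The 2 lines were also compared at the same repeat. Between the 160R groups, 5 of the 10 genes were higher in Chrom3-160R than in Chrom2-160R and none was lower, where 22.5% of all genes were called and 11.8% were called higher. These were bmm (0.64 ± 0.11, adjusted p = 0.000942), Lsd-1 (0.48 ± 0.13, adjusted p = 0.017), Rfabg (0.29 ± 0.06, adjusted p = 0.00231), Mtp (0.29 ± 0.08, adjusted p = 0.0147) and ATPCL (0.21 ± 0.06, adjusted p = 0.0151). AcCoAS, ACC, Desat1, Lpin and Lsd-2 lay between -0.09 and 0.05 and were not called. The call for Mtp was lost without Chrom3-160R replicate 1 (adjusted p = 0.0516) and without both libraries that stood apart (adjusted p = 0.0706, leaving 4 calls), and that for Lsd-1 without Chrom3-160R replicate 1 (adjusted p = 0.0515) or Chrom2-160R replicate 2 (adjusted p = 0.0519), which left 3 calls without Chrom3-160R replicate 1. Without both libraries that stood apart, 1627 of the 13589 genes tested were higher in Chrom3-160R and 1252 lower.

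Between the 5R controls, 6 of the 10 genes were lower in Chrom3-5R than in Chrom2-5R and 1 was higher, where 30.3% of all genes were called, 14.9% lower and 15.4% higher. Of the called genes 49.2% were lower, against 38.2% with upper-quartile scaling. The largest fall was that of Desat1 (-0.88 ± 0.11, adjusted p = 4.76e-05), followed by AcCoAS (-0.41 ± 0.07, adjusted p = 0.000485), ACC (-0.31 ± 0.08, adjusted p = 0.0087), Lsd-2 (-0.27 ± 0.05, adjusted p = 0.00101), Mtp (-0.21 ± 0.08, adjusted p = 0.0499) and Lpin (-0.13 ± 0.04, adjusted p = 0.015). Lsd-1 was higher in Chrom3-5R by 0.51 ± 0.13 (adjusted p = 0.00863). Rfabg (-0.11 ± 0.06), bmm (-0.11 ± 0.11) and ATPCL (-0.02 ± 0.06) were not called. For Mtp the call was lost in 19 of 26 alternatives, among them the loss of any library but Chrom2-5R replicate 4, Chrom2-160R replicate 1 and Chrom3-160R replicate 1, and its adjusted p reached 0.152; for Lpin it was lost in 4, namely without Chrom2-5R replicate 1 (adjusted p = 0.0572), with upper-quartile scaling (0.0892), with no filter (0.0567) and after thinning (0.0583). Without both libraries that stood apart 6 of the 10 were called, Mtp no longer among them (adjusted p = 0.067). Of the 13589 genes then tested, 2239 were lower and 2271 higher in Chrom3-5R.

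These comparisons share groups, and the order of the 4 means shows how. Chrom2-5R had the highest mean of all groups for 9 of the 10 genes, and Chrom2-160R the lowest for 7 of the 10. Rfabg averaged 5745 ± 412 CPM in Chrom2-160R and 9081 ± 688 CPM in Chrom2-5R (SD, n = 4), and 7047 ± 259.5 CPM in Chrom3-160R and 8432 ± 259 CPM in Chrom3-5R. Mtp averaged 81.8 ± 4.76 CPM in Chrom2-160R and 139.6 ± 18.4 CPM in Chrom2-5R, and 99.8 ± 7.14 CPM in Chrom3-160R and 121 ± 3.36 CPM in Chrom3-5R. For both genes the order, highest first, was Chrom2-5R, Chrom3-5R, Chrom3-160R and Chrom2-160R, and of the neighbours in it only the 5R groups overlapped. Desat1 averaged 1319 ± 74.6 CPM in Chrom2-160R and 2245 ± 436 CPM in Chrom2-5R, and 1238 ± 86 CPM in Chrom3-160R and 1220 ± 111 CPM in Chrom3-5R, so that Chrom2-5R stood alone and the other groups overlapped with their neighbours. For bmm it was Chrom2-160R that stood alone, at 65 ± 4.09 CPM, against 105 ± 17.2 CPM in Chrom2-5R, while Chrom3-160R stood at 101 ± 4.1 CPM and Chrom3-5R at 97.5 ± 14.7 CPM. Lsd-1 departed from the rest, with 216 ± 8.64 CPM in Chrom3-5R above all libraries of the other groups. The ratio of the highest to the lowest mean was 1.84 for Desat1, 1.74 for Lsd-1 and 1.7 for Mtp, and only 1.1 for Lpin.

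**Figure D3:**
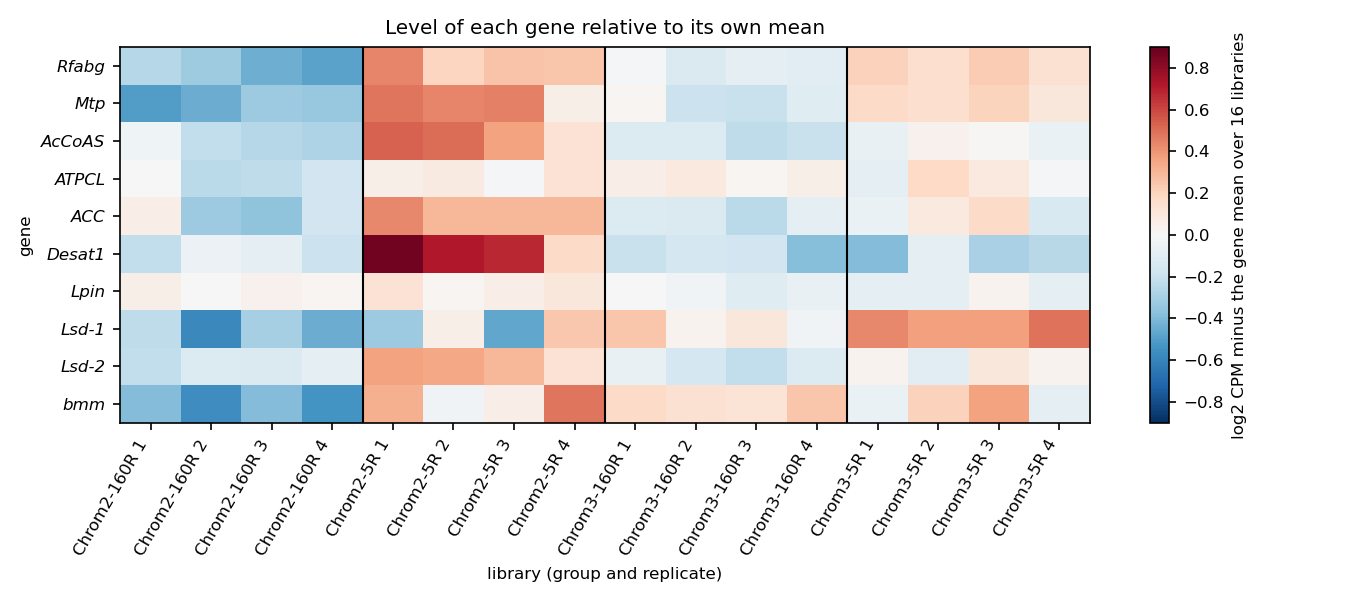
Log2 CPM of each gene (rows) in each of the 16 libraries (columns, by group and replicate) minus the gene's own mean over the 16 libraries; red is above and blue below that mean. The Chrom2-5R columns are red for most genes, with Desat1 and Mtp paler in replicate 4, and for Lsd-1 it is the Chrom3-5R columns that are reddest.

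Within a group the genes did not all move together. Chrom2-5R replicate 4 lay below its group mean for Desat1 (-0.44 log2), Mtp (-0.31), AcCoAS (-0.25) and Lsd-2 (-0.15), and above it for Lsd-1 (0.37) and bmm (0.27). Its values for Rfabg, ATPCL, ACC and Lpin lay between -0.04 and 0.07 of the mean. In Chrom2-160R replicate 1, which also had the most muscle and cuticle RNA of its group, ACC stood 0.26, ATPCL 0.16, AcCoAS 0.16 and Lsd-1 0.16 above the group mean. Profiles over the 16 libraries, each centred on its own mean, were nearest between AcCoAS and ACC and between AcCoAS and Lsd-2, with a root mean square difference of 0.11 log2 each, and 0.13 between Rfabg and Mtp. They were furthest apart between Desat1 and Lsd-1, at 0.61.

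Outside the 10 genes, the profiles most like that of Rfabg by the same measure were those of CG11395 (0.098), Gel (0.099), Nurf-38 (0.102), CG8586 (0.104) and Arc42 (0.106), where Rfabg itself varied by 0.265 about its mean. Those most like Mtp were Gel (0.083), CG14629 (0.088), CG3246 (0.097), CG10680 (0.099) and CR44779 (0.103), where Mtp varied by 0.306; CG14629 and CR44779 overlap and share counts. Gel, which encodes the actin-severing protein gelsolin, was near both. Its change was -0.66 on chromosome 2 (adjusted p = 1.74e-06) and -0.25 on chromosome 3 (adjusted p = 0.0417), beside -0.66 and -0.26 for Rfabg. Gel was picked for its likeness over these same libraries, so like changes follow from the choice.

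The rest of the lipid pathway was followed through 6 lists of other genes, of which 128 were tested. On chromosome 2, 53 of the 128 fell and 14 rose, or 41.4% and 10.9%, where 13.3% of all genes were called lower and 12.8% higher; their median change was -0.19. Without the 2 libraries that stood apart, 71 of the 128 were called, against 67 with them. On chromosome 3, 2 fell and none rose, with a median of -0.03. The line difference was called for 17 genes in the direction of a smaller fall on chromosome 3 and for 4 in the other direction; without the 2 libraries 32 were called, against 21 with them.

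Fatty acid oxidation was the most one-sided of the 6 lists. Of its 29 tested genes 20 fell on chromosome 2 and none rose, with a median of -0.37. Among them were the acyl-CoA dehydrogenase genes CG3902, with 258 ± 26.8 CPM in Chrom2-160R and 428 ± 22.1 CPM in Chrom2-5R (-0.73 ± 0.09, adjusted p = 2.64e-05), and Arc42, with 29.7 ± 2.84 and 43.5 ± 2.65 CPM in the same order (-0.55 ± 0.07, adjusted p = 3.07e-05). Thiolase, for the last step of the mitochondrial cycle, changed by -0.45 ± 0.09 (adjusted p = 0.00283). Acox57D-d, a peroxisomal acyl-CoA oxidase gene, changed by -1.04 ± 0.08 (adjusted p = 2.23e-07), but it lies within Sdc, which held 47.6 times its counts, so its value is uncertain. On chromosome 3, CG4594 alone of this list fell (-0.49 ± 0.08, adjusted p = 0.00307), and it was the only gene of the 6 lists called in both lines (-0.34 ± 0.09 on chromosome 2, adjusted p = 0.0129). Genes lower in Chrom2-160R than in Chrom2-5R thus included genes for burning fatty acids as well as genes for making them.

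Among the 24 tested genes of fatty acid synthesis, elongation and desaturation, 8 fell and 3 rose on chromosome 2, with a median of -0.08. Among the called genes the 4 largest changes were falls. Of the 3 rises, that of sea rests on the same count as fabp, a gene of the uptake list that it overlaps, so these reads enter 2 lists and give 2 of the 14 rises among the 128 genes. CG3523, the fatty acid synthase gene, had 2640.3 ± 153 CPM in Chrom2-160R and 4650.3 ± 1271 CPM in Chrom2-5R (-0.82 ± 0.15, adjusted p = 0.00146). The NADPH-producing enzymes followed, with Idh, for isocitrate dehydrogenase, at 408 ± 24.1 CPM in Chrom2-160R and 669 ± 54.4 CPM in Chrom2-5R (-0.71 ± 0.06, adjusted p = 8.94e-07). Men, for malic enzyme, had 513 ± 29.9 CPM in Chrom2-160R and 822 ± 107 CPM in Chrom2-5R (-0.68 ± 0.07, adjusted p = 7.55e-06). Desat2, a desaturase of cuticular hydrocarbon synthesis, was barely present at 0.744 ± 0.0921 and 1.54 ± 0.323 CPM in the same groups (-1.03 ± 0.21, adjusted p = 0.00193), and an overlapping gene, CG17207, held 0.924 of its counts. None of the list was called on chromosome 3. CG3523 changed there by -0.03 ± 0.15, Idh by -0.09 ± 0.06 and Men by -0.09 ± 0.07, and the line difference was called for all 3 (0.79 ± 0.21, adjusted p = 0.0404; 0.62 ± 0.09, adjusted p = 0.00047; 0.59 ± 0.10, adjusted p = 0.00271). For CG3523 the difference was lost in 18 of 25 alternatives, including the loss of any single library but Chrom2-5R replicate 4 and Chrom2-160R replicate 4. The chromosome 3 means of these genes lay nearer to Chrom2-160R than to Chrom2-5R. In Chrom3-160R and Chrom3-5R, CG3523 averaged 2273 ± 85.1 and 2318 ± 118 CPM, Idh 459 ± 27.9 and 488 ± 24.2 CPM, and Men 461 ± 26.4 and 491 ± 15.4 CPM.

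Glycerolipid and phospholipid synthesis was split, with 7 of 19 tested genes lower and 5 higher on chromosome 2 and a median of -0.09. The largest called changes were those of CG1942, an acyltransferase gene of the diacylglycerol acyltransferase 2 family (-0.86 ± 0.21, adjusted p = 0.00649), mino, for the first acylation of glycerol 3-phosphate (-0.76 ± 0.14, adjusted p = 0.00185), Cct2, for an enzyme of phosphatidylcholine synthesis (-0.55 ± 0.06, adjusted p = 6.67e-06, with the overlapping Cct1 at 3.49 times its counts), and CG33116 (-0.47 ± 0.09, adjusted p = 0.00136). None of this list was called on chromosome 3. There mino averaged 171 ± 10.3 CPM in 160R and 169.7 ± 15.7 CPM in 5R, against 177 ± 9.83 CPM in Chrom2-160R and 299 ± 72.1 CPM in Chrom2-5R. In the list of droplet and lipolysis genes 8 of 19 fell and 1 rose, with a median of -0.22. The lipase gene dob, the nearest relative of bmm, had 14.3 ± 1.98 CPM in Chrom2-160R and 39.9 ± 9.61 CPM in Chrom2-5R (-1.47 ± 0.17, adjusted p = 3.68e-05), and its change on chromosome 3, -0.42 ± 0.16, was not called (adjusted p = 0.216). Lip2 (-0.74 ± 0.15, adjusted p = 0.00343, with CG6415 overlapping at 0.865 of its counts), CG5162 (-0.51 ± 0.11, adjusted p = 0.005) and Lip4 (-0.38 ± 0.10, adjusted p = 0.00886) were the next largest among called genes.

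Lipoprotein and lipid uptake genes other than Rfabg and Mtp moved both ways, with 2 of 9 lower and 3 higher on chromosome 2 and a median of 0.04. Apoltp, whose product transfers lipid onto lipophorin, had 792 ± 81.6 CPM in Chrom2-160R and 1157 ± 224 CPM in Chrom2-5R (-0.55 ± 0.13, adjusted p = 0.00551). The lipoprotein gene cv-d changed by -0.58 ± 0.10 (adjusted p = 0.000476). The lipophorin receptor gene LpR2 rose by 0.20 ± 0.04 (adjusted p = 0.00155). The fatty acid binding protein gene fabp rose by 0.26 ± 0.09 (adjusted p = 0.0329), but it shares its whole count with sea, and the call was lost in 7 of 26 alternatives, with an adjusted p of up to 0.111; it was lost without Chrom2-160R replicate 1 (0.106) and also when 1 of the first 3 Chrom2-5R replicates was left out (0.0748, 0.0784 and 0.0998). None of these genes was called on chromosome 3.

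Regulators of lipid storage gave 8 falls and 2 rises among 28 genes on chromosome 2, with a median of -0.10. The largest called change was that of tobi, an insulin-responsive glucosidase gene of the fat body, with 27.7 ± 20.7 CPM in Chrom2-160R and 111 ± 42.6 CPM in Chrom2-5R (-2.02 ± 0.52, adjusted p = 0.0137). The sugar-responsive transcription factor gene sug (-0.66 ± 0.18, adjusted p = 0.0155), the kinase gene Lk6 (-0.51 ± 0.10, adjusted p = 0.00115) and mio (-0.29 ± 0.05, adjusted p = 0.000532) also fell. The gene mio entered this list by its symbol alone, and its place among regulators of lipid storage was not checked. For sug the adjusted p was 0.0529 without Chrom2-5R replicate 2, and in the fit of only the 2 groups compared it was 0.0557 for sug and 0.0595 for tobi. On chromosome 3 only CCHa2 fell, a gene for a nutrient-dependent peptide hormone made in fat body and gut. It had 59.9 CPM on average in Chrom3-160R and 90.7 CPM in Chrom3-5R (-0.60 ± 0.09, adjusted p = 0.00157), and its change on chromosome 2 was -0.13 ± 0.09 (adjusted p = 0.348).

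**Figure D4:**
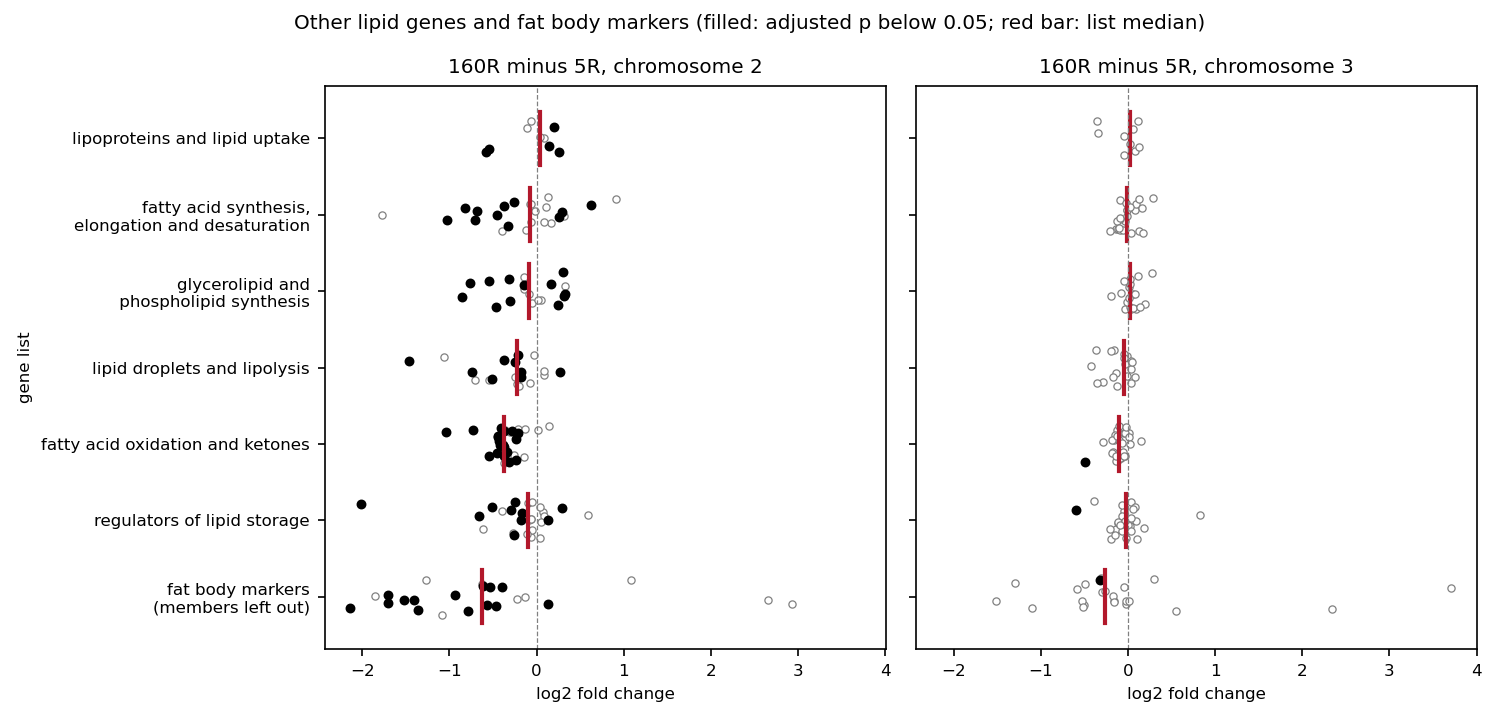
Log2 fold change (horizontal axis) of 160R minus 5R on chromosome 2 (left) and chromosome 3 (right) for the tested genes of 6 lipid lists and for the 23 fat body markers; each point is a gene, filled where its adjusted p was below 0.05, and the red bar is the list median. The median of fatty acid oxidation was -0.37 and that of the fat body markers -0.63 on chromosome 2, against -0.1 and -0.26 on chromosome 3.

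Most fat body markers other than the 10 genes were lower too. Of 23 tested, 13 fell and 1 rose on chromosome 2, with a median change of -0.63, and no marker was at 0 in all 4 libraries of any group. Their summed level was 4297 to 5462 CPM in Chrom2-160R libraries and 7456 to 9609 CPM in Chrom2-5R libraries. Among them Tsf1, for the iron carrier transferrin, had 1263 ± 141 CPM in Chrom2-160R and 2422 ± 459.7 CPM in Chrom2-5R (-0.94 ± 0.12, adjusted p = 8.09e-05). The rise was that of Npc2b (0.13 ± 0.04, adjusted p = 0.0312), a call lost in 17 of 26 alternatives, with an adjusted p of up to 0.338. Fbp1, Fbp2 and Lsp1gamma were higher with 160R in both lines, uncalled and with wide errors. Their changes on chromosome 2 and chromosome 3 were 2.93 ± 1.67 and 3.71 ± 1.48 for Fbp1 and 2.65 ± 1.41 and 2.34 ± 0.94 for Fbp2. For Lsp1gamma they were 1.08 ± 0.51 and 0.55 ± 0.44. All 3 genes were scarce. In Chrom2-5R and Chrom3-5R, Fbp1 averaged 0.501 and 0.299 CPM, Fbp2 0.0968 and 0.13 CPM, and Lsp1gamma 1.47 and 1.41 CPM. The libraries of a 160R group were far apart for Fbp1, from 0.675 to 13.9 CPM in Chrom2-160R and from 0.201 to 14.3 CPM in Chrom3-160R. The fall of Yp1, a yolk protein gene (-1.70, adjusted p = 0.0267), was lost in 8 of 26, among them the loss of any Chrom2-160R library, and without Chrom2-5R replicate 3 it was -0.85 (adjusted p = 0.091). That of Adh, for alcohol dehydrogenase, was lost in 2, with an adjusted p of 0.0517 without Chrom2-5R replicate 1. Without both libraries that stood apart 14 markers were called on chromosome 2 and 1 on chromosome 3. On chromosome 3 the summed level was 4280.3 to 5556 CPM in 160R and 5953 to 7469.7 CPM in 5R, also without overlap, while 1 of 23 fell, GstE9 (-0.32 ± 0.06, adjusted p = 0.00731, with imd overlapping at 0.361 of its counts), and the median change was -0.26. The storage protein gene Lsp2, which shares most of its counts with the overlapping CR11538, varied widely, at 150.5 ± 148 CPM in Chrom2-160R and 539.8 ± 273 CPM in Chrom2-5R, and at 455 ± 207 CPM in Chrom3-160R and 1294 ± 472 CPM in Chrom3-5R, and passed in neither line (adjusted p = 0.0531 and 0.285). The summed fat body markers were thus lower in 160R than in 5R libraries in both lines, and their part in the changes of the 10 genes was not tested. The sums weigh genes by their level, so Lsp2, called in neither line, made up a large part of the gap on chromosome 3.

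Other cell types also moved with the groups. Of 25 muscle markers 11 rose on chromosome 2 and none on chromosome 3. Their summed level was 9588 to 15540.1 CPM in Chrom2-160R and 7679.6 to 8947 CPM in Chrom2-5R, and 6889 to 10699.6 CPM in Chrom3-160R and 6842 to 8023 CPM in Chrom3-5R. Chrom2-160R replicate 1 and Chrom3-160R replicate 4 gave the upper ends. The same libraries were highest for the cuticle and epidermis markers, of which the 30 in the files summed to 679 to 1576 CPM in Chrom2-160R and 554 to 649.8 CPM in Chrom2-5R, and to 546 to 1262 CPM in Chrom3-160R and 489 to 640 CPM in Chrom3-5R; 7 of 26 tested rose and 2 fell on chromosome 2, and 1 fell on chromosome 3. Without both libraries 8 of the 10 lipid genes were still called on chromosome 2, with Rfabg at -0.71 (adjusted p = 6.09e-07), Mtp at -0.75 (adjusted p = 7.77e-05) and ACC at -0.63 (adjusted p = 5.9e-06), and 1 on chromosome 3, beside 71 and 3 genes of the lipid lists. The line difference was then called for 7 of the 10, with ATPCL (adjusted p = 0.0174) and ACC (0.00825) gained and Lsd-2 (0.0746) lost. Of the 13589 genes tested without both libraries, 1796 were lower and 1485 higher on chromosome 2, and 198 were lower and 115 higher on chromosome 3. Among the called line differences over all these genes, 770 were positive and 564 negative. Neuronal markers rose in 9 of 19 cases on chromosome 2 and summed to 13475 to 14369.7 CPM in Chrom2-160R and 12276 to 13369 CPM in Chrom2-5R. On chromosome 3 none was called and the sums were 12608 to 13869 CPM in 160R and 13406 to 14122 CPM in 5R. The part of these shifts in the values of the lipid genes was not tested.

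None of 8 tested markers of oenocytes, lipid-processing cells of the body wall, was called in either line, and the 11 in the files summed to 233 to 328 CPM in Chrom2-160R and 215 to 243 CPM in Chrom2-5R. Glial markers gave 6 rises and 3 falls among 15 genes on chromosome 2 and 1 rise on chromosome 3, and haemocyte markers 3 rises and 2 falls among 13 on chromosome 2 and none on chromosome 3. Of 5 tested midgut digestive enzymes 1 rose and 2 fell on chromosome 2 and 1 fell on chromosome 3. The 12 in the files summed to 44.9 to 60.8 CPM in Chrom2-160R and 96 to 128 CPM in Chrom2-5R, and to 49.3 to 78.8 CPM in Chrom3-160R and 64.2 to 95.5 CPM in Chrom3-5R, and the part of this in the lipid genes' values was not tested. Of 7 tested male reproductive tract genes 1 rose and 1 fell on chromosome 2 and none was called on chromosome 3.

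**Figure D5:**
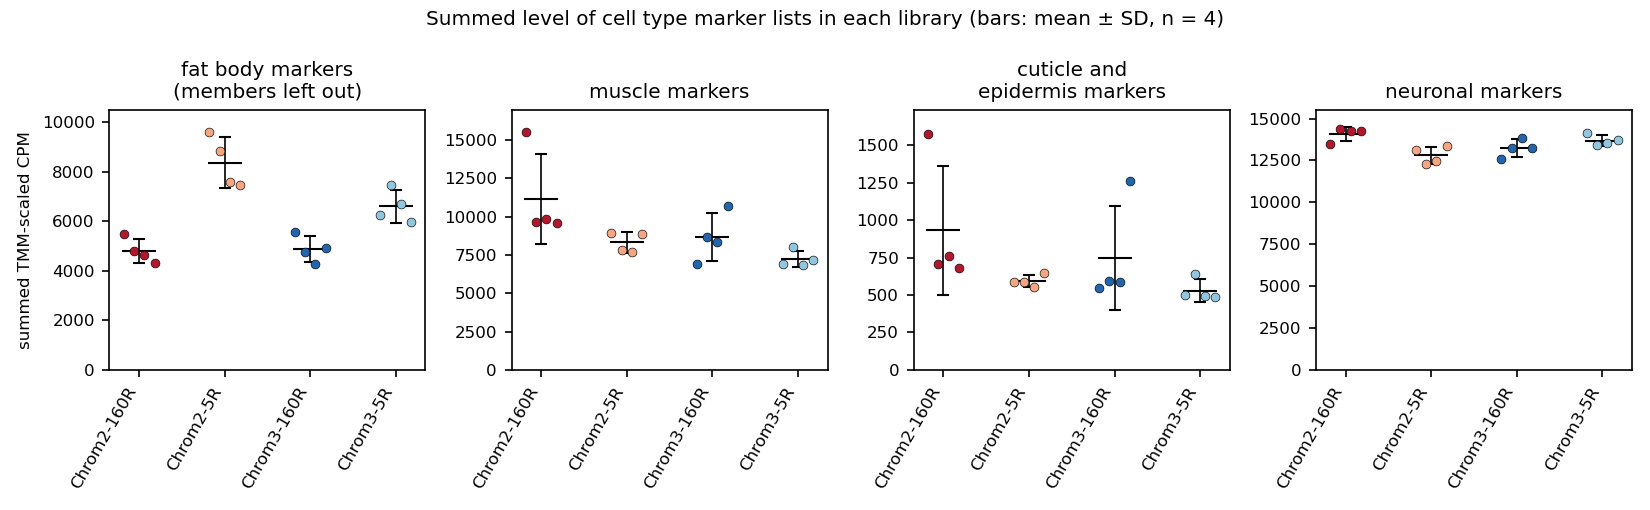
Summed TMM-scaled CPM (vertical axes, starting at 0) of the markers of fat body, muscle, cuticle and epidermis, and neurons in each of the 16 libraries; points are libraries and bars the mean and SD of 4. The fat body sum was lower in 160R than in 5R libraries in both lines, and a single 160R library in each line, replicate 1 on chromosome 2 and replicate 4 on chromosome 3, had the most muscle and cuticle RNA.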

How the data were processed

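Total RNA came from frozen heads by Trizol extraction, and strand-specific libraries were made without poly(A) selection, per the labels' protocols. The authors deposited, for each of the 16 libraries, a count of reads per gene, not normalized; the submitters' processing notes name Trimmomatic, STAR, bedtools, DESeq and the builds BDGP6 and mm10, without their roles. Gene starts and ends matched the BDGP6 annotation for all 10 genes, where Rfabg is called apolpp. From the counts, edgeR 4.0.16 in R 4.3.3 was run with TMM scaling, filterByExpr and robust quasi-likelihood fits with 1 mean per group, and tested on simulated data. Alternatives were DESeq2 1.42.0, limma 3.58.1 (voom), other scalings and filters, thinning to the smallest library, a replicate block, fits of 2 groups and leaving out libraries. Replicate numbers were not taken as pairs.

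The 10 genes, the lipid lists and the marker lists (fat body, oenocyte, muscle, cuticle and epidermis, neuronal, glial, haemocyte, midgut, male reproductive) were chosen with earlier results of these data known. Pathway genes were named where called in both lines or among the 4 largest called changes of a list in the comparisons of 160R with 5R. Tests between the lines at the same repeat are given gene by gene for the 10 genes only, and for the lists only as counts of calls. The repeat transgene was not analysed here.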

Additional observations from a re-analysis of the deposited data

Results flagged for a closer look

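In 3 of 40 sets of 4 libraries, 1 library lay far from the others for its gene; chance alone marks about 1 in 20 such sets. Mtp was at 112 CPM in Chrom2-5R replicate 4, with the nearest library of that group at 147 CPM. ACC was at 1478 CPM in Chrom2-5R replicate 1, with the nearest at 1349.7 CPM. Lpin was at 407 CPM in Chrom3-5R replicate 3, with the nearest at 378 CPM.

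The change with 160R differed between the lines for 6 genes by edgeR's test of the difference itself, chromosome 3 change minus chromosome 2 change. The differences in log2 were 0.4 for Rfabg, 0.5 for Mtp, 0.44 for AcCoAS, 0.79 for Desat1, 0.27 for Lsd-2 and 0.75 for bmm.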

How the results depend on the processing

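The 50 comparisons of the 10 genes, 27 of them called, gave 1290 values under the alternatives: 1193 kept direction and side of the threshold, 48 lost the call, 13 gained it and 36 changed sign. None of the sign changes concerned a called value. Outside single left-out libraries they were Lpin on chromosome 3 at 0 (upper-quartile scaling and thinning), ATPCL between the 5R groups at 0.02 (upper-quartile scaling) and 0 (no filter), Lsd-2 between the 160R groups at 0.01 (no filter) and Lsd-1 in the line difference at 0.07 (leaving out both libraries that stood apart). With single libraries left out, chromosome 3 changes ran between -0.03 and 0.05 for ATPCL, -0.03 and 0.07 for Desat1, -0.02 and 0.03 for Lpin and -0.01 and 0.14 for bmm; the line difference of Lsd-1 between -0.17 and 0.07; the 160R groups differed by 0 to 0.15 for ACC and -0.03 to 0.03 for Lsd-2; and the 5R groups by -0.07 to 0.02 for ATPCL.

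Counts of called genes moved by over 1.5 times as follows; where no cause is named it was not tested. Of the 10 genes, 2 were called on chromosome 3 by DESeq2 and 3 in the fit of 2 groups, against 1, and 0 to 2 with single libraries left out; between the 160R groups 3 to 5 with single libraries left out. Of all genes, 2293 were called on chromosome 2 in the fit of 2 groups, against 3535; on chromosome 3, 541 by DESeq2 and 184 after thinning, against 285, and 167 to 452 with single libraries left out (452 without Chrom2-160R replicate 1, and 167 without Chrom3-5R replicate 3); and 620 line differences after thinning, against 983, and 584 to 1695 with single libraries left out (584 without Chrom2-5R replicate 3, and 1695 without Chrom2-5R replicate 4). Of the lipid lists, DESeq2 called 6 on chromosome 3, against 2. Without both libraries that stood apart 32 line differences were called, against 21. Leaving out single libraries gave 14 to 35 line differences (33 without Chrom2-5R replicate 4, and 35 without Chrom2-160R replicate 1). Between the 160R groups it gave 26 to 55 calls (26 without Chrom3-160R replicate 1), against 41 of 128, where 22.5% of all genes were called. Of the fat body markers, 2 were called on chromosome 3 with upper-quartile scaling and in the fit of 2 groups, 4 by DESeq2 and 3 by limma, against 1, and 1 to 3 with single libraries left out; 7 line differences by DESeq2, against 4, and 3 to 8 with single libraries left out; and with single libraries left out 4 to 10 between the 160R groups and 4 to 7 between the 5R groups, against 7 in each.

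Deviations from the group mean in same-numbered libraries of different groups correlated between -0.21 and 0.24, and not every library matched its own number best. These values cannot settle whether same-numbered libraries shared a day of collection or a cross. With the replicate block, 8 of the 10 genes were called on chromosome 2 and 1 on chromosome 3. Of all 13525 genes, 1584 were then lower and 1468 higher on chromosome 2, and 135 were lower and 62 higher on chromosome 3. The block also gave 647 called line differences over all genes and 2 called fat body markers on chromosome 3. Of the 39 other genes named or used as fat body markers on chromosome 2, 32 kept their call everywhere and Adh, Desat2, fabp, Npc2b, sug, tobi and Yp1 lost it in places, as given with them except for Desat2 (adjusted p = 0.0947 after thinning). The call was also kept by all 3 on chromosome 3 and by 11 of 21 in the line difference.

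Depth cannot be told apart from line. With all libraries thinned to the smallest total, 8 of the 10 genes were called on chromosome 2 and 1 on chromosome 3. Of the 11938 genes then tested, 1540 were lower and 1267 higher on chromosome 2, and 128 were lower and 56 higher on chromosome 3.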
